A study of Mus musculus with 12 samples.

Results

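Genes of the unfolded protein response (UPR) were followed through the colorectal tissue of mice with and without a chemically induced colitis-associated cancer and with and without swimming. They were taken by symbol from the gene table, and all 10 listed symbols, Hspa5, Xbp1, Ern1, Ern2, Atf4, Atf6, Ddit3, Herpud1, Dnajb9 and Trib3, were present among its 18514 genes. RNA was sequenced from 12 male C57BL/6 mice, bought at 4 weeks of age, with 1 library per mouse and 3 mice in each of 4 groups. Model mice were injected with the carcinogen azoxymethane (AOM, 10 mg/kg), and afterwards drank water with 2% dextran sulfate sodium (DSS), which damages the colonic lining, in 3 cycles of 7 days. Ctrl mice received neither agent and drank ordinary water. Ctrl_Swim mice were trained to swim for up to 90 min per day, starting 2 months ahead of the experiment, and Model_Swim mice had the same training together with AOM/DSS. The labels number the Ctrl_Swim mice 2, 3 and 4. Mice that did not swim were placed in shallow water instead. In this chemical model tumor, inflamed and uninvolved mucosa may share a library. The sources used here do not state which piece of the colon was taken from each mouse.

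The UPR is the program by which a cell answers a load of unfolded protein in the endoplasmic reticulum (ER). Its sensors sit in the ER membrane. IRE1 (Ern1, and in mucosal epithelium its paralog Ern2) cuts an intron out of the Xbp1 mRNA, PERK (Eif2ak3) phosphorylates eIF2 alpha and so favors translation of ATF4, and ATF6 is cut in the Golgi to free a transcription factor. The resulting factors raise chaperones such as BiP (Hspa5), ERAD components such as Herpud1 and, on prolonged stress, CHOP (Ddit3) and Trib3. In the colon the pathway is known above all from goblet cells and plasma cells, which secrete large amounts of protein.

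The part of the pathway that these counts cannot see is shown by the Xbp1 sequence. Below, the stretch of the mouse Xbp1 transcript around the IRE1 cut sites is written as mRNA sense DNA letters, with the 26 bases that IRE1 removes in capitals. They lie in coding exon 4 of transcript Xbp1-201 at chr11:5524279-5524304 (GRCm38, GENCODE annotation).
Xbp1 IRE1 intron: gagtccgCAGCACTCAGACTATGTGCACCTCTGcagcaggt
Since 26 bases leave a remainder of 2 after division by 3, the cut shifts the reading frame and gives the active factor. Reads counted per gene add the cut and uncut forms, so the Xbp1 values below are total Xbp1 mRNA. Likewise ATF6 cleavage, PERK activity and the translation of Atf4 were not measured.

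Some promoters of this pathway carry a short element through which ATF6 and XBP1 act, the ER stress response element (ERSE), here searched on both strands as CCAAT, 9 spacer bases and CCACG, from 250 bases before to 50 after the transcription start (RefSeq promoters, GRCm38.p6). Of 32851 promoters in the reference, 0.119% held it. Among the 10 genes, 8 had a promoter there, and Hspa5 held the ERSE. Herpud1 held the related ERSE-II (ATTGG, 1 spacer base, CCACG), which 0.0365% of all promoters hold. The windows below show these elements in capitals with 12 bases on either side, beside those of 4 chaperone and folding genes that were lower in Ctrl_Swim than in Ctrl mice. The elements of Calr and Creld2 run on the strand opposite to the gene and so appear as the reverse complement.
Hspa5, chr2:34772013-34772055, plus strand, element 65 to 47 bases before the start: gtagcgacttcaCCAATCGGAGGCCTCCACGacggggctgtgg
Herpud1, chr8:94386365-94386399, plus strand, element 52 to 42 bases before the start: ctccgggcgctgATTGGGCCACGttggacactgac
Pdia6, chr12:17266479-17266521, plus strand, element 98 to 80 bases before the start: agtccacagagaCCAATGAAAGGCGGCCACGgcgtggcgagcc
Dnajc3, chr14:118937815-118937857, plus strand, element 105 to 87 bases before the start: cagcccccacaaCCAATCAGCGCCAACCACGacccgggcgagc
Calr, chr8:84847063-84847105, minus strand, element 162 to 144 bases before the start: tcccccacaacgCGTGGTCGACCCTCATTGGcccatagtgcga
Creld2, chr15:88819508-88819550, plus strand, element 126 to 108 bases before the start: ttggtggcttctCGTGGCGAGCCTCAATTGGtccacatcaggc

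All 10 genes were counted in every mouse and passed the filter on low counts, so none was left out of the tests. Levels can be compared between genes on the FPKM scale, which is per transcript length. Mean FPKM over the 12 mice ran from Hspa5 at 191, which lay above 98.2% of all genes, through Xbp1 at 106, Atf4 at 95.7, Herpud1 at 61.1, Ern2 at 39.9, Dnajb9 at 27.6, Atf6 at 11.9, Ern1 at 11.1 and Ddit3 at 4.39 down to Trib3 at 0.857. Over the 12 mice the ranges of neighbors in this order overlapped for Xbp1 and Atf4, for Ern2 and Dnajb9, and for Atf6 and Ern1. Trib3, a pseudokinase induced by ATF4 and CHOP, rested on 19 to 54 counts per mouse, while Hspa5 rested on 8224 to 12723. The ratio of the highest to the lowest mouse on the CPM scale (counts scaled to library size by TMM, used from here on) was 1.34 for Herpud1, 1.35 for Xbp1 and 2.67 for Trib3. Overlap of groups and ranks of mice refer to the CPM scale unless FPKM is named. FPKM values lack the TMM factors, which were 0.932 to 0.954 in Ctrl mice and 0.977 to 1.08 in the others.

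**Figure D1:**
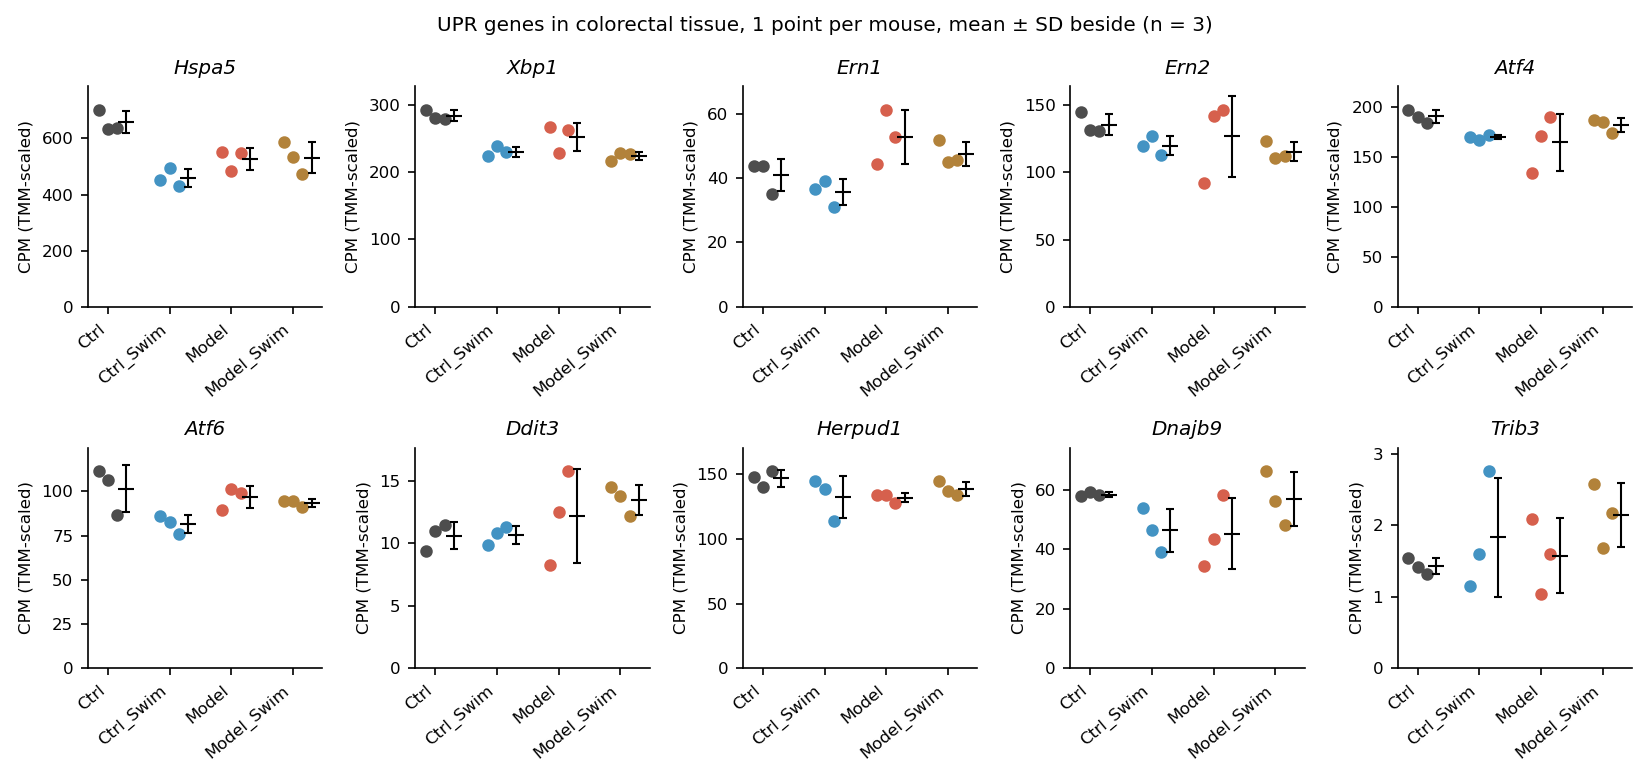
CPM (TMM-scaled, linear axes from 0) of the 10 UPR genes, with 1 point per mouse and the mean ± SD of the 3 mice beside each group. For Hspa5 the 3 Ctrl mice (635 to 702 CPM) sit above all the other mice (430 to 586 CPM), while for Ern1 the 6 AOM/DSS mice (44.4 to 61.2 CPM) sit above the 6 others (31.1 to 43.9 CPM).

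Some properties of whole libraries touch the results. Total counts were 17256953 to 19451055 per library, so that the 3 counts which a count of 0 allows are at most 0.174 CPM (counting error only). Epithelial marker genes (Epcam at 1250 to 1658 CPM) were high in all mice, as the tissue label says. Summed over 20 marker genes of pancreatic acinar cells, which make large amounts of secreted enzymes, Model 1 had 53682 CPM and Model 3 had 26185 CPM, while the other 10 mice had 200.2 to 704 CPM. The defining acinar markers Pnlip, Cela2a, Cpa1 and Ctrb1 lay at 2364 to 7817 CPM in those 2 mice and at 8.6 CPM or less in the others. The sum of 9 squamous epithelium markers was 10.1 to 1444 CPM and was highest in Model 2. Values without Model 1 and Model 3 are given below for some genes. Model 2 is then the only Model mouse. In comparisons with Model, only the log2 fold change is given for that fit. In bulk tissue, fewer cells of a type and less RNA per cell cannot be told apart.

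The first comparison asked what AOM/DSS did to the pathway in mice that did not swim. Of the 10 genes, Hspa5 was lower and Ern1 higher in Model than in Ctrl mice, and 8 did not pass the test. The fitted level in Model was 0.803 times that of Ctrl mice for Hspa5 and 1.29 times for Ern1. The test was edgeR's quasi-likelihood test in a fit of all 4 groups with Benjamini-Hochberg adjustment over 15484 genes, and a gene was called at an adjusted p under 0.05. With 2 of 10 called, the set lay below the background, since 32.7% of all genes tested were called in this comparison (16.5% higher, 16.2% lower). With the study's further demand of a fold change over 2 or under 0.5, none of the 10 was called against 7.43% of all genes. The median log2 fold change was -0.12 over the 10 genes and 0.01 over all genes tested.

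Hspa5 (chr2:34772090-34776529), whose protein BiP binds unfolded chains and keeps the sensors inactive, had 702, 635 and 637 CPM in Ctrl mice and 552, 483 and 548 CPM in Model mice. All Model mice were below all Ctrl mice. The log2 fold change was -0.32 (SE 0.09, edgeR adjusted p = 0.0257, n = 3 against 3). Ern1 (chr11:106397620-106487796), which encodes IRE1 alpha, had 43.9, 43.6 and 35.2 CPM in Ctrl mice and 44.4, 61.2 and 52.6 CPM in Model mice. The groups did not overlap, but Model 1 lay next to Ctrl 1 and Ctrl 2. The log2 fold change was 0.37 (SE 0.13, edgeR adjusted p = 0.0494). Both calls were lost without Ctrl 1, Ctrl 2, Ctrl 3 or Model 2, and that of Ern1 also without Model 3 or Model_Swim 3, while the direction stayed. Without Model 1 and Model 3, the libraries with pancreatic RNA, Model 2 is the only Model mouse. The log2 fold change was then -0.47 for Hspa5 and 0.56 for Ern1.

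Xbp1 (chr11:5520641-5525993) had 292, 280 and 279 CPM in Ctrl mice and 267, 229 and 262 CPM in Model mice. The groups did not overlap and the log2 fold change was -0.17 (SE 0.07), with an edgeR adjusted p of 0.0787. Without Model 1 and Model 3, which leaves 1 Model mouse, the log2 fold change of Xbp1 was -0.33. Herpud1, which recruits ERAD components at the ER membrane, had 148, 140 and 152 CPM in Ctrl and 134, 134 and 128 CPM in Model mice, also without overlap, with a log2 fold change of -0.15 (SE 0.08) and an adjusted p of 0.185. Thus 4 of the 10 genes had groups that did not overlap on the CPM scale, and over all genes tested this held for 44.2%. On the FPKM scale Hspa5 and Ern1 stayed apart, while Xbp1 and Herpud1 overlapped. In FPKM Xbp1 was at 112.7 to 117.0 in Ctrl and 101.7 to 116.5 in Model mice. Herpud1 was at 59.5 to 63.8 in Ctrl and 57.7 to 61.7 in Model mice. A Herpud1 read may also belong to the antisense gene Gm15890 that overlaps it, since the strand setting of the counting is not given in the sources used here.

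The stress-induced factors were scattered in the Model mice. Ddit3, encoding CHOP, had 9.38, 10.96 and 11.5 CPM in Ctrl and 8.29, 12.5 and 15.8 CPM in Model mice, so that the Model mice held both the lowest and the highest value of the 12 mice. Its log2 fold change was 0.20 (95% interval -0.23 to 0.63). Dnajb9, an ER co-chaperone that represses IRE1, had 57.8, 59.2 and 58.2 CPM in Ctrl and 34.3, 43.6 and 58.1 CPM in Model mice, with a log2 fold change of -0.37 (95% interval -0.76 to 0.03). Model 1 was the lowest of the 12 mice in 4 of the 10 genes, Ern2, Atf4, Ddit3 and Dnajb9, and was the library with the most acinar RNA. The part of that RNA in the scatter was not tested. Without Model 1, 4 genes were called, Xbp1 and Ddit3 (log2 fold change 0.43, adjusted p = 0.0408) in addition to Hspa5 and Ern1. Without Model 3, the calls included Dnajb9 (-0.57, adjusted p = 0.0146) and Atf4 (-0.31, adjusted p = 0.0187).

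The intervals show what sizes these data leave room for in the other genes. Atf4, the factor translated when PERK is active, differed by -0.21 (95% interval -0.43 to 0.02). Atf6 differed by -0.07 (95% interval -0.27 to 0.14) and Ern2 by -0.09 (95% interval -0.41 to 0.22). For Trib3 the interval was wide, from -0.68 to 0.96.

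**Figure D2:**
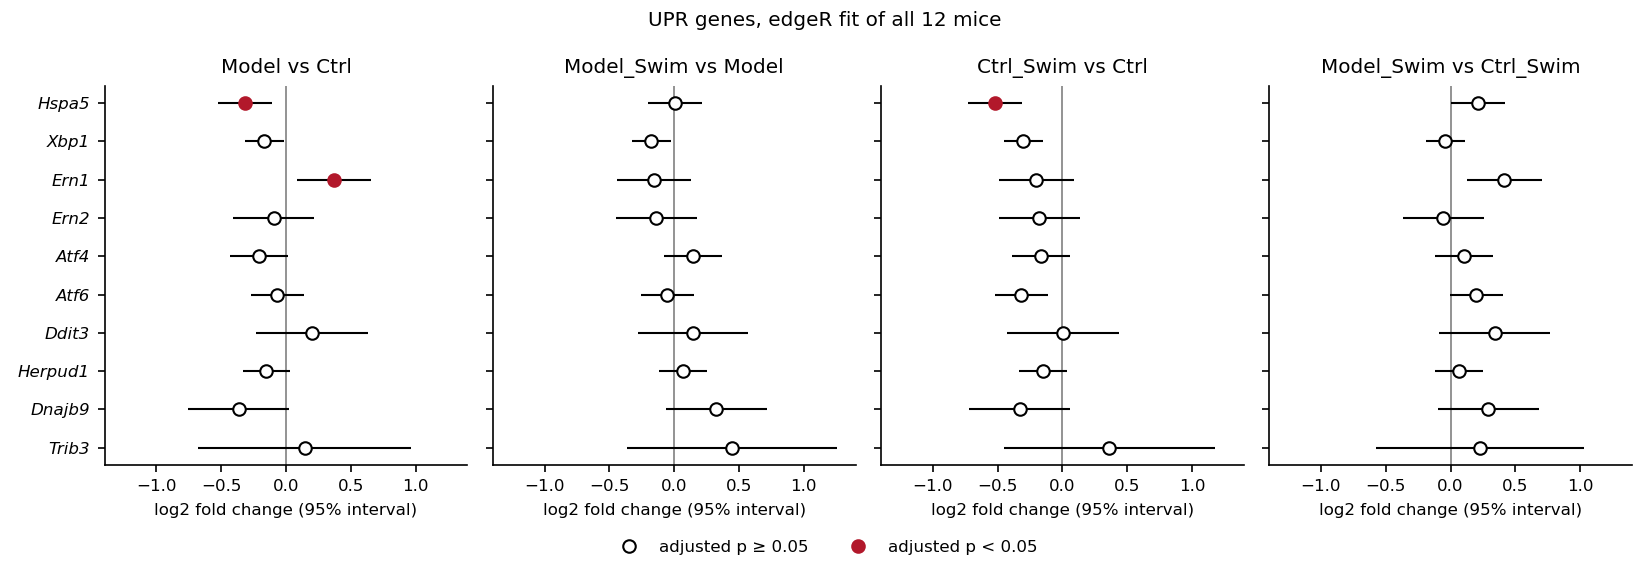
Log2 fold changes of the 10 genes (points, first group against second) with 95% intervals (lines) in 4 comparisons of 3 mice against 3, from the edgeR fit of all 12 mice, with filled points for an adjusted p under 0.05. Filled points are Hspa5 (-0.32) and Ern1 (0.37) in Model vs Ctrl and Hspa5 (-0.52) in Ctrl_Swim vs Ctrl.

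The ratio of the IRE1 paralogs separated the mice with AOM/DSS from those without. Ern1 is expressed in most cells, whereas Ern2 (IRE1 beta, chr7:122169893-122186239) belongs to mucus-secreting epithelium. The ratio of Ern2 to Ern1 FPKM, which does not depend on how libraries are scaled, was 4.21, 3.84 and 4.73 in Ctrl mice and 4.17, 4.16 and 4.63 in Ctrl_Swim mice. It was 2.65, 2.96 and 3.55 in Model mice and 3.04, 3.14 and 3.15 in Model_Swim mice. Every AOM/DSS mouse lay below every mouse without AOM/DSS. The mean was 3.05 ± 0.46 in Model against 4.26 ± 0.45 in Ctrl mice, and 3.11 ± 0.06 in Model_Swim against 4.32 ± 0.27 in Ctrl_Swim mice (SD, n = 3 each). The exact two-sided permutation p was 0.1 in each of these comparisons of 3 against 3, which is the smallest p they can give. Between Model_Swim and Model the difference was 0.06 (exact permutation p = 0.9), and between Ctrl_Swim and Ctrl it was 0.06 (exact permutation p = 1). This ratio was looked at after the values of both genes had been seen.

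**Figure D3:**
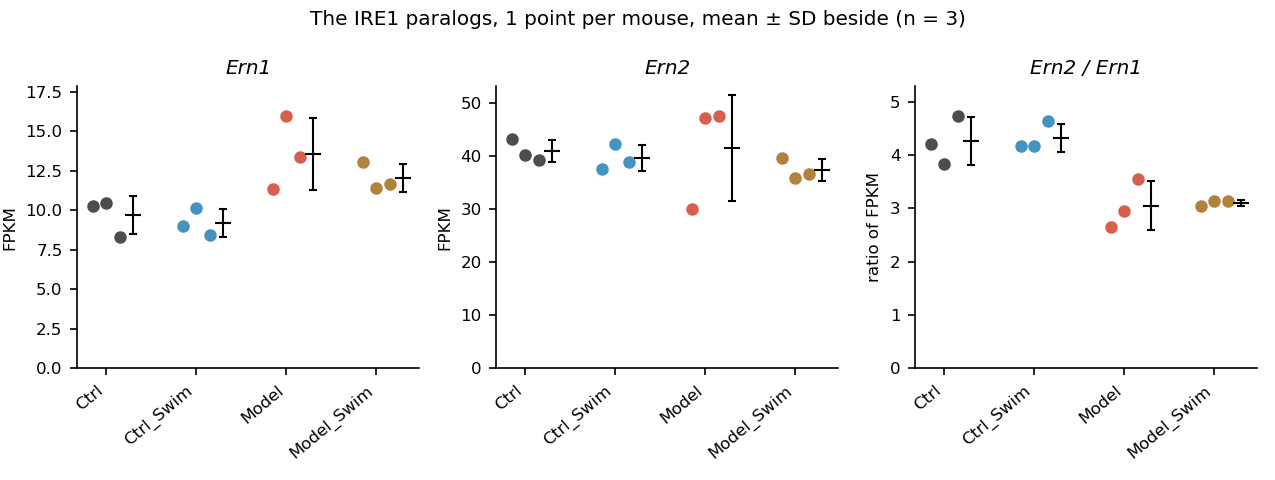
FPKM of Ern1 and Ern2 and their ratio, with 1 point per mouse and mean ± SD beside each group (n = 3). The ratio is 2.65 to 3.55 in the 6 AOM/DSS mice and 3.84 to 4.73 in the 6 others.

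Cell type markers moved with these groups. The summed CPM of 12 colon epithelium markers was 13087 to 17291 in Model and 23022 to 25431 in Ctrl mice, and 8 of its 12 genes were called lower in Model. The goblet list summed to 14414 to 34662 CPM in Model and 38008 to 48586 CPM in Ctrl mice, and 4 of its 9 tested genes were called lower. The macrophage and neutrophil list summed to 735 to 760 CPM in Model and 326 to 353 CPM in Ctrl mice, with 10 of 11 genes called higher. The plasma cell list overlapped, at 1323 to 1772 CPM in Model and 1119 to 1606 CPM in Ctrl mice, with 3 of 10 genes called higher. Called higher were also 9 of 10 B and T cell markers (summing to 158 to 207 CPM in Model and 54.9 to 81.3 CPM in Ctrl mice), 6 of 7 fibroblast markers (2541 to 2799 and 1479 to 1605 CPM) and 9 of 9 squamous markers. With the mean log2 level of the goblet list in the fit Hspa5 was at -0.21 (adjusted p = 0.329) and Ern1 at 0.68 (adjusted p = 0.0226). With the epithelium list in its place Hspa5 was at -0.26 (adjusted p = 0.668) and Ern1 at 0.51 (adjusted p = 0.532). Both lists move with the groups, so that in such fits the list and AOM/DSS cannot be told apart.

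Around the 10 genes, 5 lists of other pathway genes were read, with 110 genes in the table and 109 tested. In Model against Ctrl mice, 41 of the 109 were lower and 11 higher, where 16.2% of all genes tested were called lower and 16.5% higher. The machinery of ER entry and export, which XBP1 is known to drive, had the largest share of called genes among the 5 lists. Of its 22 genes 18 were lower and 0 higher, all 22 had a negative log2 fold change, and the median was -0.36. The largest decreases were in Kdelr3 (-0.62, SE 0.09), Kdelr2 (-0.51, SE 0.08), which return escaped ER proteins from the Golgi, and Sec11c (-0.50, SE 0.08), a subunit of the signal peptidase. Kdelr3 was at 35.1 to 41.2 CPM in Ctrl and 22.3 to 26.7 CPM in Model mice, without overlap.

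Among 23 ER chaperones and folding enzymes 10 were lower and 1 higher, with a median of -0.24. The disulfide isomerases Pdia6 (-0.43, SE 0.09) and Txndc5 (-0.41, SE 0.11) fell. Ero1lb, an oxidase that recharges them, rose by 1.19 (SE 0.25), from 16.3, 10.8 and 13.3 CPM in Ctrl to 36.9, 19.5 and 36.1 CPM in Model mice. Ero1lb is also known to be abundant in the pancreas. Its highest values were those of Model 1 and Model 3, the libraries with acinar RNA, and Model 2, whose acinar sum was 391 CPM, was nearest to the Ctrl mice. Without Model 1 and Model 3, with Model 2 as the only Model mouse, its log2 fold change was 0.51. Of 19 genes of ER-associated degradation 5 were lower and 0 higher, among them Vimp (-0.57, SE 0.11), Selk (-0.25, SE 0.08) and Vcp (-0.23, SE 0.07), of which Vcp encodes the ATPase that pulls substrates out of the ER. Without the same 2 mice Selk was at -0.29 and Vcp at -0.39.

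The PERK arm and the targets of ATF4 went both ways, with 6 of 24 higher, 2 lower and a median of 0.08. For this list and the next, the shares over all genes tested are 16.5% higher and 16.2% lower. The cystine transporter Slc7a11 rose by 1.10 (SE 0.31) and Ddit4, an inhibitor of mTORC1, by 0.88 (SE 0.20). The transsulfuration enzyme Cth fell by 0.88 on the log2 scale (SE 0.14). Of 21 genes for other sensors and for processing, 4 were higher and 6 lower. In this list the pro-apoptotic Bcl2l11 rose by 1.02 (SE 0.13), while Creb3l3 (-1.27, SE 0.40) and Creb3l4 (-0.61, SE 0.15), membrane-bound transcription factors related to ATF6, fell. With Model 2 as the only Model mouse, Creb3l3 was at -1.26 and Creb3l4 at -0.92. The count of 52 called genes over the lists dropped to 33, 34 and 33 without Ctrl 1, Ctrl 2 or Model 2, and to 4 with the study's fold cutoffs. Without Model 1 and Model 3 no count is given, since Model 2 is the only Model mouse left.

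The second comparison asked whether swimming changed the pathway in AOM/DSS mice. By edgeR 0 of the 10 genes was called in Model_Swim against Model mice, where 0.0710% of all genes were called. At an unadjusted p under 0.05 there was 1 gene, Xbp1, and DESeq2 called 0. Xbp1 had 267, 229 and 262 CPM in Model and 216, 228 and 227 CPM in Model_Swim mice. Each Model_Swim mouse was below each Model mouse, by less than 1 CPM at the nearest. The log2 fold change was -0.18 (SE 0.07, edgeR adjusted p = 0.300). Xbp1 was the 1 gene of the 10 without overlap, against 17.0% of all genes tested.

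For Hspa5 the difference between Model_Swim and Model was 0.01, with a 95% interval from -0.20 to 0.22. Values were 552, 483 and 548 CPM in Model and 586, 534 and 473 CPM in Model_Swim mice, and the groups overlapped fully. Ern1 differed by -0.16 (95% interval -0.44 to 0.13), Atf6 by -0.05 (-0.26 to 0.15) and Herpud1 by 0.07 (-0.12 to 0.25). Ddit3 differed by 0.15 (-0.28 to 0.57), Dnajb9 by 0.33 (-0.07 to 0.72) and Trib3 by 0.44 (-0.37 to 1.25). The intervals of Dnajb9 and Trib3 leave room for changes of over 1.5-fold. Among the 109 other pathway genes edgeR called 0, with 17 at an unadjusted p under 0.05, where 2102 of all 15484 genes were under it. DESeq2 called 5 of the 109 and 350 of all genes. No count is given without Model 1 and Model 3, which leaves Model 2 as the only Model mouse.

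The third comparison asked what swimming did in mice without AOM/DSS. Hspa5 was lower in Ctrl_Swim than in Ctrl mice, and 8 of the 10 genes had a negative log2 fold change, with a median of -0.19 against 0.00 over all genes. Hspa5 was the 1 gene of the 10 called, where 0.969% of all genes tested were called. In 6 of the 10 genes, Hspa5, Xbp1, Ern2, Atf4, Atf6 and Dnajb9, all Ctrl_Swim mice were below all Ctrl mice on the CPM scale. Groups of 27.5% of all genes tested were apart in either direction. On the FPKM scale Hspa5, Xbp1 and Dnajb9 stayed apart, while Ern2, Atf4 and Atf6 overlapped. In FPKM Ern2 was at 37.5 to 42.3 in Ctrl_Swim and 39.3 to 43.3 in Ctrl mice. Atf4 was at 90.2 to 100 and 93.7 to 99.5, and Atf6 at 10.41 to 10.89 and 10.36 to 13.22. The Ctrl mice of this comparison are those of Model vs Ctrl, so the lower Hspa5 in both is not a repeated observation.

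Hspa5 had 702, 635 and 637 CPM in Ctrl and 450, 495 and 430 CPM in Ctrl_Swim mice. All Ctrl_Swim mice were below all Ctrl mice. The log2 fold change was -0.52 (SE 0.09, edgeR adjusted p = 0.0372), which is a level of 0.697 times that of Ctrl mice. It kept its direction in each of 26 alternative analyses, from -0.56 to -0.35. Of these, the study's fold cutoffs reuse the same fold change, and others leave out only mice outside this comparison. The call was lost when any 1 of the 6 mice compared, or Model_Swim 1 or Model_Swim 2, was left out, with adjusted p from 0.0532 to 0.179.

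Xbp1 had 292, 280 and 279 CPM in Ctrl and 223, 238 and 229 CPM in Ctrl_Swim mice. The log2 fold change was -0.30 (SE 0.07, edgeR adjusted p = 0.0647), and DESeq2 gave -0.29 with an adjusted p of 0.00265. Atf6 had 111, 106.5 and 86.5 CPM in Ctrl and 86.2, 82.4 and 75.9 CPM in Ctrl_Swim mice, so that Ctrl 3 and Ctrl_Swim 2 lay side by side. Its log2 fold change was -0.32 (SE 0.09, edgeR adjusted p = 0.135), and DESeq2 gave an adjusted p of 0.0481. Dnajb9 had 57.8 to 59.2 CPM in Ctrl and 53.7, 46.3 and 39.2 CPM in Ctrl_Swim mice (-0.33, edgeR adjusted p = 0.351). On the CPM scale Ctrl_Swim 4 was the lowest of the 12 mice in 4 genes, Hspa5, Ern1, Atf6 and Herpud1. Its TMM factor, 1.08, was the highest of the 12. On the FPKM scale Ctrl_Swim 4 was lowest in Herpud1 only. There Ctrl_Swim 2 was lowest in Hspa5 (155 against 163), and Ctrl 3 in Ern1 (8.32 against 8.41) and Atf6 (10.36 against 10.41). The squamous sum of Ctrl_Swim 4 was 382 CPM, against 63.3 and 10.1 CPM in Ctrl_Swim 2 and Ctrl_Swim 3. Its B and T cell sum was 181 CPM, against 68.0 and 78.6 CPM. In Ctrl_Swim against Ctrl mice all 9 squamous and all 10 B and T cell markers had a positive log2 fold change, and 0 were called. The part of these cells in the pathway values was not tested.

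Ddit3 and Trib3 did not pass the test in this comparison. Ddit3 had 9.38, 10.96 and 11.5 CPM in Ctrl and 9.86, 10.8 and 11.3 CPM in Ctrl_Swim mice, which overlapped fully, with a log2 fold change of 0.01 (95% interval -0.42 to 0.44). Trib3 had 1.55, 1.42 and 1.32 CPM in Ctrl and 1.15, 1.60 and 2.76 CPM in Ctrl_Swim mice, at 0.36 (95% interval -0.45 to 1.18). Ern1 differed by -0.20 (95% interval -0.49 to 0.09) and Herpud1 by -0.15 (95% interval -0.33 to 0.04). Ern2 had 145, 131 and 130.3 CPM in Ctrl and 119.7, 127 and 113 CPM in Ctrl_Swim mice, at -0.18 (adjusted p = 0.540).

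Other chaperones were lower together with Hspa5. Of the 109 pathway genes 21 were lower and 0 higher in Ctrl_Swim, where 0.801% of all genes tested were called lower. In 98 of the 109 the log2 fold change was negative, against 7733 of all 15484 genes tested. In 70 of the 109 all Ctrl_Swim mice were below all Ctrl mice on the CPM scale, against 2304 of all 15484. The median log2 fold change of the 109 was -0.29. The genes with the smallest adjusted p were Sdf2l1 (-0.86, SE 0.10), Creld2 (-0.65, SE 0.08) and Pdia6 (-0.69, SE 0.09), each with an edgeR adjusted p of 0.0175. These are folding factors of the ER lumen. Sdf2l1, a partner of ER co-chaperones, was at 40.6 to 50.4 CPM in Ctrl and 23.3 to 25.9 CPM in Ctrl_Swim mice. Pdia6 was at 286 to 343 CPM in Ctrl and 183 to 205 CPM in Ctrl_Swim mice. Creld2 was at 46.1 to 54.6 CPM in Ctrl and 30.9 to 32.3 CPM in Ctrl_Swim mice.

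By list, 8 of 23 chaperones and folding enzymes, 9 of 22 genes of ER entry and export, 2 of 19 of ER-associated degradation, 2 of 24 of the PERK arm and ATF4 targets and 0 of 21 other sensors were lower. Summed over the 23 chaperones and folding enzymes, levels were 6405 to 7097 CPM in Ctrl, 5111 to 5266 CPM in Ctrl_Swim, 5271 to 6044 CPM in Model and 5204 to 5581 CPM in Model_Swim mice. The ER entry and export list summed to 3186 to 3519 CPM in Ctrl, 2561 to 2727 CPM in Ctrl_Swim, 2513 to 2730 CPM in Model and 2616 to 2628 CPM in Model_Swim mice. In both lists the 3 Ctrl mice were the 3 highest of the 12, as they were for Hspa5 and for Xbp1. On the FPKM scale this held for Hspa5 but not for Xbp1, where Model 1 was at 116.5 and Ctrl 2 at 114.7. A fall in the swimming or AOM/DSS mice and a high level in these 3 Ctrl mice cannot be told apart.

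**Figure D4:**
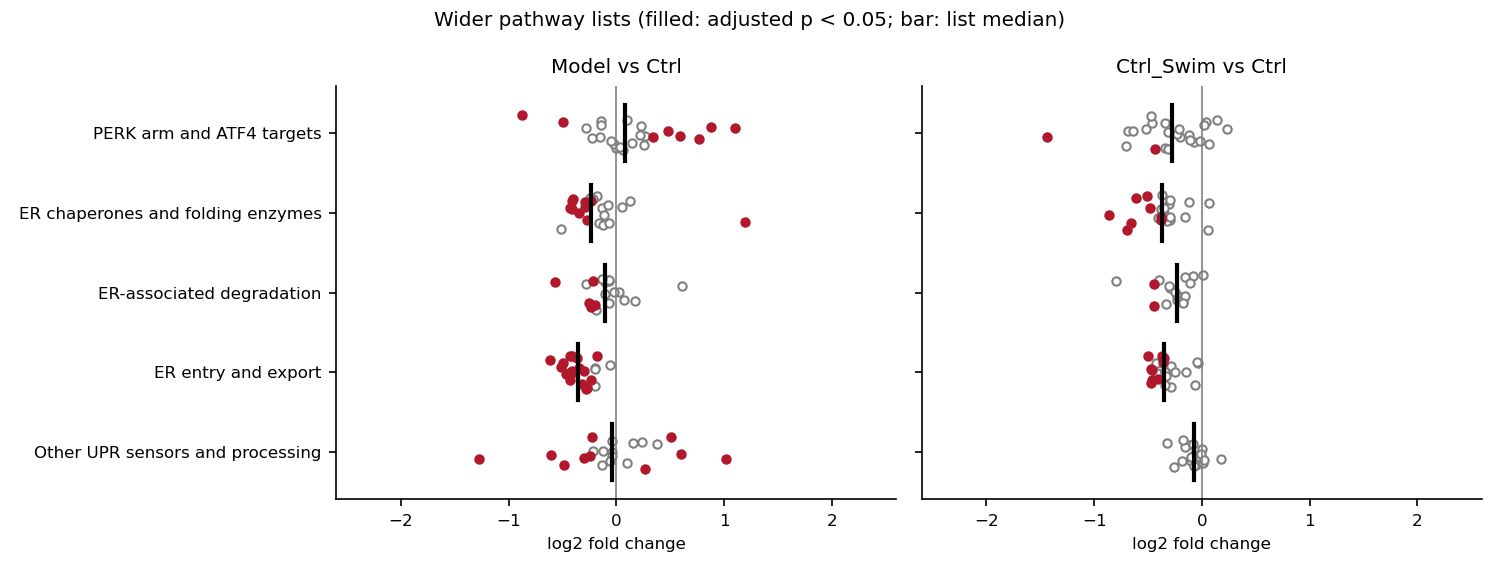
Log2 fold changes of 109 pathway genes in 5 lists for Model vs Ctrl and Ctrl_Swim vs Ctrl, with 1 point per gene, filled at an adjusted p under 0.05, and a bar at each list's median. The ER entry and export list has a median of -0.36 in Model vs Ctrl and -0.35 in Ctrl_Swim vs Ctrl, and both comparisons share the Ctrl mice.

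The ERSE was frequent in the list of chaperones and folding enzymes. Of the 20 genes of the chaperone list with a promoter in the reference, 7 held it, Calr, Canx, Creld2, Dnajc3, Ero1lb (listed there as Ero1b), Hsp90b1 and Pdia6, which is 35% against 0.137% of 27025 genes with a promoter. Of the 16 pathway genes lower in Ctrl_Swim that had a promoter, 4 held it, Calr, Creld2, Dnajc3 and Pdia6, and 0 of 16 ER entry and export genes did. All 4 are among the 7 of the chaperone list, so they are not a separate observation. The amino acid response element that ATF4 binds (TGATGNAAN, both strands) was in 7 of 22 promoters of the PERK and ATF4 list and in the promoters of Herpud1 and Trib3, and in 4.5% of the 27025 genes with a promoter. A match shows that the letters are present, not that a factor was bound.

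The goblet markers moved with the same mice. The summed goblet list was 38008 to 48586 CPM in Ctrl and 14036 to 18262 CPM in Ctrl_Swim mice, and 2 of its 9 tested genes were called lower. Of its defining markers, Clca1 was at 15912 to 21678 CPM in Ctrl and 1930 to 4132 CPM in Ctrl_Swim mice, Muc2 at 8732 to 10897 and 7141 to 8275 CPM, and Spdef at 139 to 169 and 75.6 to 110.8 CPM. The plasma cell list, of which Igha and Igkc were not matched in the table, was at 1119 to 1606 CPM in Ctrl and 1078 to 1187 CPM in Ctrl_Swim mice, with 1 of 10 genes called lower. Of all 15484 genes tested, 2304 were lower in every Ctrl_Swim mouse than in any Ctrl mouse on the CPM scale. This held for all 9 tested goblet genes and 6 of the 10 plasma cell genes. A fit with either list therefore cannot tell the list and swimming apart. With the goblet list in the fit Hspa5 was at -0.36 (edgeR adjusted p = 0.384), and with the plasma cell list at -0.35 (edgeR adjusted p = 0.388). In both of these fits 0 of the 109 pathway genes and 0 of all 15484 genes were called. Of the pathway genes 41 and 25 were at an unadjusted p under 0.05, and 85 and 89 had a negative log2 fold change.

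The count of 21 pathway genes, out of 150 of all genes called, moved with the libraries and the method. It was 0 without Ctrl 1, Ctrl 3 or Ctrl_Swim 3, where 0 of all genes were called, and 2 without Ctrl 2, where 10 of all genes were. It was 5 to 11 without any 1 of the other swimming mice and 26 to 30 without any 1 Model mouse. Without Model 1 and Model 3 it was 45 (604 of all genes), with only the Ctrl and Ctrl_Swim mice in the fit 34 (368 of all genes), and by DESeq2 43 (649 of all genes). With limma on log2(FPKM + 1) it was 4, where 48 of 13851 genes were called and the median log2 fold change of all genes was 0.09. In that analysis 3 chaperones and folding enzymes and 0 genes of ER entry and export were called, and 76 of the 109 genes had a negative log2 fold change. With the study's fold cutoffs it was 1 (26 of all genes).

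**Figure D5:**
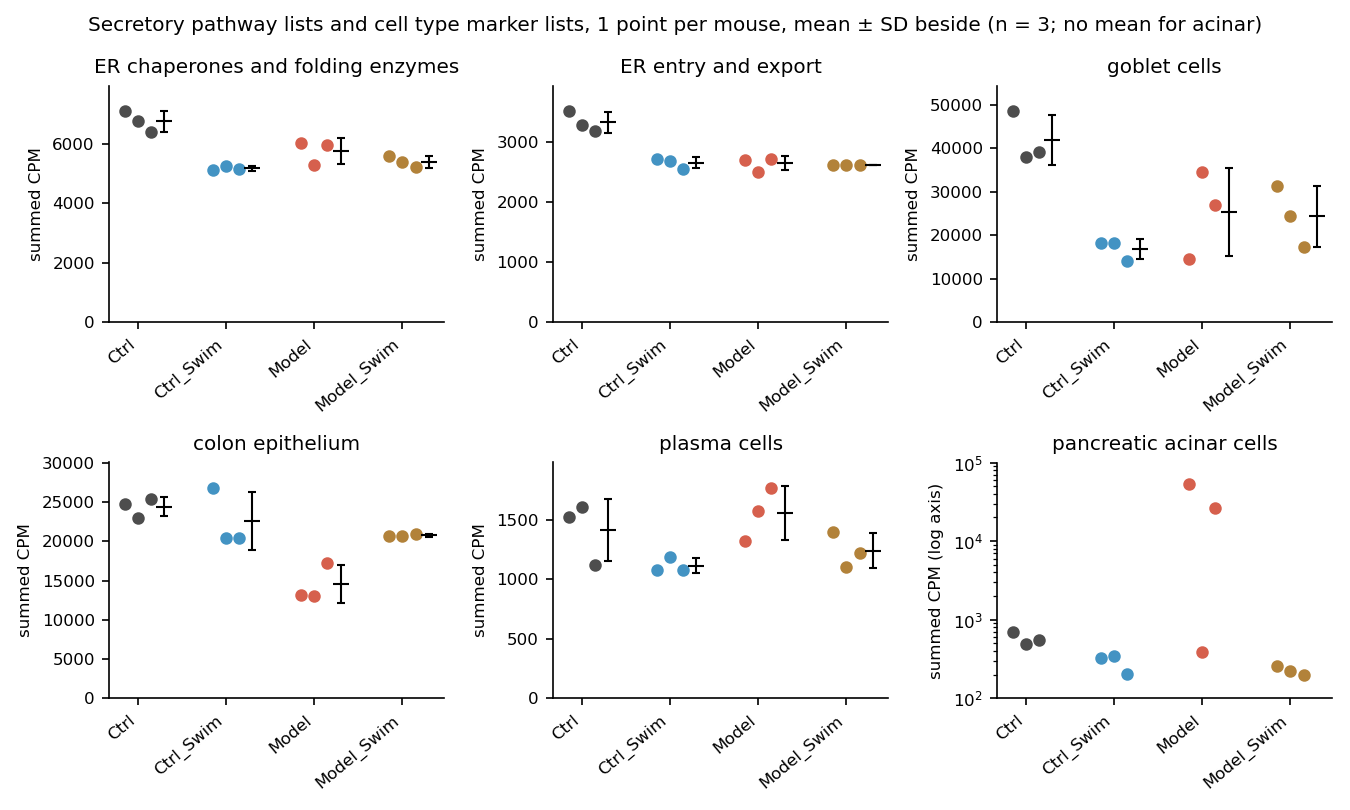
Summed CPM of 2 pathway lists and 4 cell type marker lists, with 1 point per mouse and mean ± SD beside each group (n = 3, linear axes from 0). The acinar list has a log axis and no mean, with Model 1 at 53682 CPM and Model 3 at 26185 CPM, and the goblet list is at 14036 to 18262 CPM in Ctrl_Swim against 38008 to 48586 CPM in Ctrl mice.

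The fourth comparison asked what AOM/DSS did in mice that swam, with groups that share no mouse with Model vs Ctrl. By edgeR 0 of the 10 genes was called between Model_Swim and Ctrl_Swim mice, where 5.18% of all genes were called. At an unadjusted p under 0.05 there were 2, Hspa5 and Ern1, and DESeq2 called 1, Ern1. Of the 10 genes 8 had a positive log2 fold change, with a median of 0.20 against -0.01 over all genes. In Ern1, Atf4, Atf6 and Ddit3 all Model_Swim mice were above all Ctrl_Swim mice, 4 of 10 where 32.4% of all genes tested did not overlap. On the FPKM scale Atf4 overlapped, at 90.2 to 100 in Ctrl_Swim and 95.8 to 102 in Model_Swim mice.

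Ern1 had 36.6, 38.9 and 31.1 CPM in Ctrl_Swim and 51.7, 44.9 and 45.6 CPM in Model_Swim mice. All Model_Swim mice were above all Ctrl_Swim mice, and the log2 fold change was 0.41 (SE 0.13, edgeR adjusted p = 0.0924, DESeq2 adjusted p = 0.0351). Ddit3 had 9.86, 10.8 and 11.3 CPM in Ctrl_Swim and 14.5, 13.8 and 12.2 CPM in Model_Swim mice, at 0.34 (95% interval -0.09 to 0.77). Hspa5 had 450, 495 and 430 CPM in Ctrl_Swim and 586, 534 and 473 CPM in Model_Swim mice, and the groups overlapped by 1 mouse on each side. Its log2 fold change was 0.21 (SE 0.09, edgeR adjusted p = 0.214), while in the mice that did not swim it was -0.32.

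Set side by side, Model vs Ctrl and Model_Swim vs Ctrl_Swim had the same sign in 5 of the 10 genes, in 60.6% of the 109 pathway genes and in 68.8% of all genes tested. The log2 fold change was positive in both for Ern1, Ddit3 and Trib3 and negative in both for Xbp1 and Ern2, and of these 5 genes Ern1 in Model vs Ctrl alone was called. Among the pathway genes 7 were higher, where 3.49% of all genes were called higher, and 1 was lower. Those with the smallest adjusted p were Vldlr, a lipoprotein receptor induced through ATF4 (0.65, SE 0.09), Bcl2l11 (0.86, SE 0.13) and Slc7a11 (1.90, SE 0.32). Slc7a11 was at 19.5 to 34.7 CPM in Model_Swim and 4.25 to 9.76 CPM in Ctrl_Swim mice. Both Slc7a11 and Bcl2l11 were called higher in each of these comparisons, and 5 of the 7 belong to the PERK and ATF4 list. The ER entry and export list, with 18 of 22 lower in Model vs Ctrl, had 0 called here, 7 positive and 15 negative log2 fold changes and a median of -0.05. The count of 8 was 2 to 12 when single mice were left out, lowest without Model_Swim 3. It was 18 without Model 1 and Model 3 (2153 of 15952 genes), 0 with the replicate number as a block (40 of all genes, against 802 without the block) and 2 with the study's fold cutoffs (155 of all genes).

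Markers of other cells differed between these groups too. The macrophage and neutrophil list summed to 598 to 826 CPM in Model_Swim and 319 to 420 CPM in Ctrl_Swim mice, with 5 of 11 genes called higher and 11 of 11 at an unadjusted p under 0.05. The fibroblast list summed to 1958 to 2564 CPM in Model_Swim and 1358 to 1616 CPM in Ctrl_Swim mice, with 3 of 7 called higher. Of the plasma cell list 1 of 10 and of the goblet list 1 of 9 were called higher, and of the epithelium list 1 of 12 was called lower. Their part in the pathway values was not tested.

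Whether the effect of swimming differed between mice with and without AOM/DSS was tested as an interaction. By edgeR 0 of the 10 genes was called, and 0% of all genes were (2947 of 15484 at an unadjusted p under 0.05). At an unadjusted p under 0.05 there were 2 of the 10, and DESeq2 called 1, Hspa5. All 10 estimates were positive, with a median of 0.18. For Hspa5 the interaction was 0.53 (SE 0.13, edgeR adjusted p = 0.115, DESeq2 adjusted p = 0.00843), with swimming at -0.52 without AOM/DSS and 0.01 with it. For Dnajb9 it was 0.66 (SE 0.25, edgeR adjusted p = 0.198), with swimming at -0.33 without AOM/DSS and 0.33 with it. Without Model 3 the Dnajb9 interaction was 0.87 (edgeR adjusted p = 0.0395). With Model 2 as the only Model mouse, that of Hspa5 was 0.67. Of the 109 pathway genes edgeR called 0, with 43 at an unadjusted p under 0.05, and 93 had a positive estimate. DESeq2 called 17 of them (750 of all genes). Without Model 3 edgeR called 14 (716 of 15681 genes).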

How the data were processed

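Per the labels and the study's methods, total RNA of colorectal tissue was made into TruSeq stranded mRNA libraries. The authors aligned reads to GRCm38.p6 with HISAT2 and counted them per gene with HTSeq-count. The deposited counts are whole numbers without normalization, and the deposited FPKM values, made by the authors with Cufflinks, were proportional within each gene to its share of the library's counts. Versions and the strand setting are not given in the sources used here.

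The tests on counts were run with edgeR 4.0.16 in R 4.3.3 (TMM, filterByExpr with a minimum count of 10, quasi-likelihood fit of the 4 groups, Benjamini-Hochberg adjustment over 15484 genes). Standard errors were taken from the log2 fold change and its F statistic, and 95% intervals from the same fit. CPM values are TMM-scaled. Replicates are separate mice, with within-group correlations of 0.923 to 0.988. Alternatives used DESeq2 1.42.0, limma 3.58.1 on log2(FPKM + 1) and log2(FPKM + 0.1), other filters, covariates and left-out mice. The code was tested on simulated data.

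The 10 genes and all lists were chosen with earlier results of these data known. Named genes are the 10, in each pathway list the 3 called genes with the largest change in Model vs Ctrl at a mean of at least 1 CPM, and the 3 with the smallest adjusted p in other comparisons, besides defining cell type markers. Where adjusted p values tied, as in Ctrl_Swim vs Ctrl, genes were taken in the order of the lists. Genes with an ERSE and those named where a count changed were named after their values were seen. One listed degradation gene, March6, was not matched by symbol.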

Additional observations from a re-analysis of the deposited data

Results flagged for a closer look

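In groups of 3 mice no test for single outlying mice was made. Among the 10 genes and 18 named pathway genes, AOM/DSS or swimming went in opposite directions without overlap in 2, both for AOM/DSS in mice that did and did not swim. Over all 109 pathway genes 6 did so, and over all 15484 genes tested 495, which is 3.2%. Sdf2l1 was at 40.6 to 50.4 CPM in Ctrl and 35.3 to 39.8 CPM in Model mice, but at 23.3 to 25.9 CPM in Ctrl_Swim and 28.6 to 33.6 CPM in Model_Swim mice, and the interaction of 0.58 (SE 0.14) had an edgeR adjusted p of 0.115. Vcp was at 434 to 476 CPM in Ctrl and 348 to 416 CPM in Model mice, but at 376 to 381 CPM in Ctrl_Swim and 394 to 406 CPM in Model_Swim mice, and the interaction of 0.31 (SE 0.10) had an edgeR adjusted p of 0.155. Neither difference passed the test.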

How the results depend on the processing

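Each result was recomputed under 26 alternatives, 12 of which left out 1 mouse and 2 of which (the goblet and colon epithelium lists as covariates) were chosen after seeing the data. Of 1300 recomputed log2 fold changes of the 10 genes, 0 called values reversed, 112 changed direction without being called, 39 lost and 18 gained a call, and the causes were not tested. In Model vs Ctrl, 2 of the 10 genes were called. The number was 0 with only the groups compared, with the study's fold cutoffs and with the epithelium covariate. It was 1 with the replicate block, with limma at either pseudocount or without a filter, and with the plasma cell or goblet covariate. It was 3 with the acinar covariate, and 0 to 4 when 1 mouse was left out. In Ctrl_Swim vs Ctrl, 1 was called. The number was 3 by DESeq2, 2 with only the groups compared or without Model 1 and Model 3, 0 with the replicate block, the study's cutoffs, each limma fit and each of the acinar, plasma cell, goblet and epithelium covariates, and 0 to 2 when 1 mouse was left out. In Model_Swim vs Ctrl_Swim and in the interaction, 0 became 1 by DESeq2. In the former it was also 1 with only the groups compared. Leaving out 1 mouse gave 0 in the former and 0 to 1 in the latter. In Model_Swim vs Model it was 0 throughout. The 52 pathway genes called in Model vs Ctrl became 33 with only the groups compared, 4 with the study's cutoffs, 34 with limma on log2(FPKM + 0.1), 19 with the goblet and 0 with the epithelium covariate (which called 0 of all genes), and 33 to 54 when 1 mouse was left out.

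Replicate numbers were not used as pairs in the main fit. Deviations of same-numbered mice correlated at -0.26 to 0.56 (median 0.005), above 0.1 in 4 of 15 pairs. Those of differently numbered mice correlated at -0.56 to 0.45 (median -0.031), above 0.1 in 13 of 39 pairs. With the replicate block the pathway genes called in Ctrl_Swim vs Ctrl went from 21 to 0, while all genes called went from 150 to 1. The number 4 belongs to Ctrl_Swim 4 alone, so the block in effect leaves that mouse out. Calls near the threshold changed with single mice. Depth limited Trib3, at 19 to 54 counts per mouse.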
